A study of Mus musculus with 12 samples.

Results

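The genes described here store and release fat in adipocytes, or are hormones that adipocytes secrete, and were read in mouse hearts after a single oral dose of a compound labelled DMA. The list held 10 genes: Lipe, Pnpla2, Plin1, Adipoq, Lep, Cidec, Cfd, Retn, Fabp4 and Lpl. Members were the probes whose platform annotation gives 1 of these symbols alone, with the brightest probe taken per gene, out of 18069 genes with a named probe. Of the 10 genes, 8 had such a probe, each with 1 probe only, and 6 had enough values for a test. Plin1 and Cfd had no probe under their symbol and are not analysed here.

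Balb/c mice, an inbred strain, were gavaged with 30 mg/kg body weight of DMA, an abbreviation that the labels leave unexpanded, or with DMSO, the vehicle. Hearts were taken 24 h or 48 h later, and each treatment at each time was read on 3 one-colour arrays, 12 in all in 4 groups. No genetic change is named for any group, and neither age nor sex of the mice is given. RNA came from myocardium, and the design text describes it as isolated as a pool for each treatment and time, while the labels call the 3 arrays biological replicates. P-values below therefore measure the spread between these samples, which may be partly or, if the RNA was pooled, wholly technical. In the pooled case neither p-values nor intervals cover the spread between mice.

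Adipocytes keep triglyceride in droplets coated by perilipin 1, and Cidec, a protein of droplet contact sites, helps small droplets merge into large ones. On demand Pnpla2 (adipose triglyceride lipase) removes the first fatty acid and Lipe (hormone-sensitive lipase) the next. Lpl releases fatty acids from circulating lipoproteins, and Fabp4 carries fatty acids inside the cell. Adiponectin (Adipoq), leptin (Lep), resistin (Retn) and adipsin (Cfd) are secreted by fat. Heart muscle itself makes Lpl and uses Pnpla2, and capillary endothelium and macrophages also make Fabp4, so those genes are not particular to fat. Adiponectin, leptin and resistin are made mainly by adipocytes in the mouse, and fat lies around the base of the heart and its vessels. In RNA of a whole tissue, fewer fat cells and less RNA per fat cell cannot be told apart.

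Values are log2 intensities as deposited. Medians of the arrays were 6.03 to 6.04 at 24 h and 6.35 to 6.36 at 48 h, so that the table looked scaled within each time, and levels are compared only between arrays of 1 time. Between 322 and 3997 of 36227 probes had no value on an array. DMA 24 h replicate 3 stood apart, with a correlation of 0.742 to the median of the other 24 h arrays against 0.927 to 0.963 for the other 11 arrays and their own time. It also had 503 values at its lowest value of 1.37. DMA 48 h replicate 3 had the lowest array weight of its time, 0.526. Values without these arrays are given beside the results whose sign they turn.

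Adiponectin was read clearly on all 12 arrays and did not differ between DMA and DMSO beyond the spread. At 24 h Adipoq lay at 9.91, 10.21 and 11.07 on DMSO replicates 1, 2 and 3 and at 9.43, 10.44 and 10.74 on DMA replicates 1, 2 and 3. At 48 h it lay at 9.28, 10.48 and 9.94 on DMSO and at 9.49, 10.24 and 10.27 on DMA, in the same order. The groups overlapped at both times. What the arrays shared was the replicate number: replicate 1 was the lowest of the 3 in each of the 4 groups. Of 25002 probes with a value on every array, 6.22% had 1 and the same replicate number lowest in each group, and 3.47% had replicate 1. The DMA minus DMSO difference was -0.19 at 24 h (SE 0.486, 95% interval -1.26 to 0.87, limma adjusted p = 0.937). At 48 h it was 0.10 (SE 0.486, 95% interval -0.97 to 1.17, limma adjusted p = 1.0). Without both DMA replicate 3 arrays the differences were -0.46 and -0.04.

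Leptin was read at a low level, below the array medians, in every group. At 24 h Lep lay at 3.46, 4.50 and 5.13 on DMSO replicates 1 to 3 and at 4.10, 5.28 and 5.57 on DMA. At 48 h the values were 3.86, 4.67 and 4.28 on DMSO and 4.76, 2.86 and 5.46 on DMA. DMA 48 h replicate 2 held the lowest leptin value of its time, and DMA 24 h replicate 3 the highest of its own. At 24 h each DMA array was above its same-numbered DMSO array, by 0.64, 0.78 and 0.44, but the groups overlapped. DMA was higher in each pair for 11.4% of the 35401 probes tested. Probes lacking a pair stay in this base and cannot meet the condition, so the shares of pairs given here and for Retn run low. At 48 h the pairs went both ways, and 13.3% of probes had DMA higher in each pair. The difference was 0.62 at 24 h (SE 0.681, 95% interval -0.88 to 2.11, limma adjusted p = 0.876) and 0.09 at 48 h (SE 0.681, 95% interval -1.41 to 1.58, limma adjusted p = 1.0). Without both DMA replicate 3 arrays it was 0.32 at 24 h and -0.46 at 48 h.

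Resistin was the member with the smallest p, at 24 h, and did not pass the threshold after adjustment. Retn lay at 8.26, 8.5 and 9.71 on DMSO replicates 1 to 3 of 24 h. On the DMA side replicate 1 was at 7.93 and replicate 3 at 5.93, and replicate 2 had no value. Both DMA values were below all 3 DMSO values, and the lower of them came from the array that stood apart. The difference was -1.89 (SE 0.646, 95% interval -3.33 to -0.46), with an unadjusted p of 0.0146 and a limma adjusted p of 0.871. Over all probes 3.03% had an unadjusted p under 0.05 at 24 h and 3.48% had DMA values all below the DMSO values, and Retn ranked 228 by p. Without DMA 24 h replicate 3 the difference was -0.90 and rested on 1 DMA array.

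At 48 h Retn lay at 8.46, 8.62 and 8.97 on DMSO and at 8.03, 7.99 and 8.95 on DMA, replicates 1 to 3. Each pair of equal number had the DMA value lower, with differences of -0.44, -0.64 and -0.02; 9.43% of all probes had this too, and the groups overlapped. The difference was -0.36 (SE 0.578, 95% interval -1.65 to 0.92, limma adjusted p = 1.0). The DMA effect of Retn at 48 h minus that at 24 h was 1.53 (SE 0.867, limma adjusted p = 0.999), which did not pass.

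The promoters of these 3 hormone genes are shown because Adipoq and Lep had the highest correlation across arrays among the members, given further on, and Retn had the smallest p. The table of RefSeq promoters (GRCm38.p6) held 8 of the 10 genes. Each sequence is the 250 bases before the annotated start of transcription, 5′ to 3′ on the strand of the gene, and capitals mark a match to a searched motif.
Adipoq, chr16:23146286-23146535, plus strand: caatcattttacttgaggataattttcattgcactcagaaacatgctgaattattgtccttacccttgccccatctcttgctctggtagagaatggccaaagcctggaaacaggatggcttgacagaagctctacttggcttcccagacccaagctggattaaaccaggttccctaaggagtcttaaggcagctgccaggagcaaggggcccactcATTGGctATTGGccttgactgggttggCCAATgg
Lep, chr6:29059971-29060220, plus strand: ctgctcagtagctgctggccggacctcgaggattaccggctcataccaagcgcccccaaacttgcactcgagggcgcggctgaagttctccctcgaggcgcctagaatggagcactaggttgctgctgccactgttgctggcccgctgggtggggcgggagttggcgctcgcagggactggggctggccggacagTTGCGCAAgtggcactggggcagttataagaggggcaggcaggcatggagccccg
Retn, chr8:3655520-3655769, plus strand: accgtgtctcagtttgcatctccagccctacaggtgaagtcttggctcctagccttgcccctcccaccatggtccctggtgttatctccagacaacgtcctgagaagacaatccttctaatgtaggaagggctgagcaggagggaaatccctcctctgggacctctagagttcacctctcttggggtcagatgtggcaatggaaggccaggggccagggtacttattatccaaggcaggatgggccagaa
The motifs were CCAAT, the core of the CCAAT box; TTGCGCAA, a palindrome that C/EBP factors of fat cells bind; TATAAA, the TATA box; CACGTG, an E-box; and AGGTCA, a nuclear receptor half-site. Both strands were searched, and no matches overlapped. Adipoq held CCAAT 3 times, 7, 27 and 34 bases before the start counted from the first base of each match. Lep held TTGCGCAA once, 55 bases before the start. Retn held none of the 5 motifs. Of 32851 promoter windows of this length, 33.8% held CCAAT, 0.164% TTGCGCAA, 12.4% TATAAA, 6.02% CACGTG and 14.0% AGGTCA. No motif was shared by Adipoq and Lep.

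**Figure D1:**
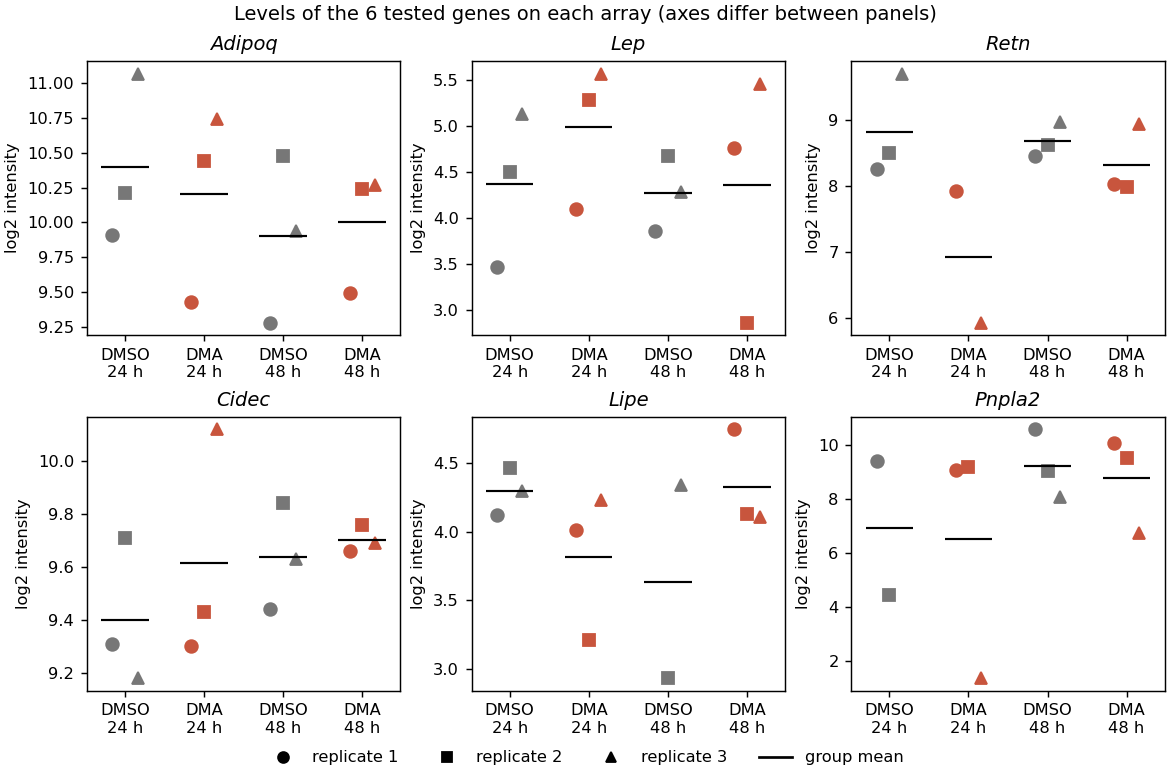
Log2 intensity (vertical axis, a different range in each panel) of the 6 tested genes on the arrays of the 4 groups, with DMSO in grey, DMA in red, a marker shape for each replicate number and a line at the group mean. Adipoq has replicate 1 lowest in all 4 groups, Cidec stays between 9.18 and 10.12, and Pnpla2 spans 1.37 to 10.57.

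Cidec, a gene of droplet storage, had the steadiest RNA level of the tested members, and storage itself was not measured. Cidec lay at 9.31, 9.71 and 9.18 on DMSO replicates 1 to 3 and at 9.30, 9.43 and 10.12 on DMA at 24 h. At 48 h it lay at 9.44, 9.84 and 9.63 on DMSO and at 9.66, 9.76 and 9.69 on DMA. The groups overlapped at each time, and the only value above 10 was on the array that stood apart. The difference was 0.21 at 24 h (SE 0.331, 95% interval -0.51 to 0.94, limma adjusted p = 0.901) and 0.07 at 48 h (SE 0.331, 95% interval -0.66 to 0.79, limma adjusted p = 1.0). Without DMA 24 h replicate 3 the 24 h difference was -0.04.

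The lipases behaved differently from each other across arrays. Lipe was read below the array medians: at 24 h it lay at 4.12, 4.47 and 4.30 on DMSO replicates 1 to 3 and at 4.01, 3.21 and 4.23 on DMA. At 48 h DMSO replicates 2 and 3 were at 2.93 and 4.34, replicate 1 had no value, and DMA replicates 1 to 3 were at 4.75, 4.13 and 4.11. The groups overlapped at both times, and the lowest values were on DMA 24 h replicate 2 and DMSO 48 h replicate 2. The difference was -0.48 at 24 h (SE 0.449, 95% interval -1.47 to 0.52, limma adjusted p = 0.871). At 48 h it was 0.69 (SE 0.502, 95% interval -0.42 to 1.81, limma adjusted p = 1.0), and -0.01 without DMSO 48 h replicate 2. The change of the DMA effect between the times was 1.17 (SE 0.674, limma adjusted p = 0.999). A further probe lists Lipe together with another symbol and was not used.

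Pnpla2 had the widest spread of the members, wider within groups than between them. At 24 h DMSO replicates 1 and 2 were at 9.38 and 4.44, replicate 3 had no value, and DMA replicates 1 to 3 were at 9.05, 9.16 and 1.37. The last is the lowest value of its array and so only a bound. At 48 h Pnpla2 lay at 10.57, 9.01 and 8.07 on DMSO and at 10.07, 9.50 and 6.72 on DMA. Replicate 3 was the lowest in 3 groups and had no value in the other, and replicate 1 was the highest in 3 groups. The difference was -0.38 at 24 h (SE 2.26, 95% interval -5.40 to 4.64, limma adjusted p = 0.977) and -0.45 at 48 h (SE 2.02, 95% interval -4.94 to 4.04, limma adjusted p = 1.0). Without DMA replicate 3 the signs turned, to 2.20 at 24 h and 0.57 at 48 h. The fit with same-numbered arrays as blocks gave the same 2.20 at 24 h by construction. DMSO replicate 3 had no value there, so its DMA partner drops out of that fit. No direction could be given for Pnpla2 at either time.

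Fabp4 and Lpl, the fatty acid carrier and the lipoprotein lipase, were hardly read. Fabp4 had a value on 2 arrays, 14.62 on DMSO 24 h replicate 3 and 10.94 on DMA 24 h replicate 3. Lpl had a value on 1 array, 12.40 on DMA 24 h replicate 3. Neither was tested, and neither had a value at 48 h. Probes with so few values were mostly bright ones: 115 probes had a value on 1 to 3 arrays, with a median log2 value of 13.52 and 82.6% of them above 12, against a median of 6.08 and 3.95% above 12 for probes with a value on every array. Why the cells are empty is not given in the sources used here. An empty cell for Fabp4 or Lpl is therefore no sign of a low level.

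Across the 6 tested members limma called 0 of 6 at 24 h, at 48 h and for the difference between the times. Over all 35401 probes 0 passed (0.0%) in each of the 3 comparisons, with 1071 at an unadjusted p under 0.05 at 24 h (3.03%), 494 at 48 h (1.4%) and 695 for the difference between the times (1.96%). At 24 h 2 members were higher under DMA and 4 lower (median -0.29), against 55.8% of all probes higher and a median of 0.09 over them. At 48 h 4 were higher and 2 lower (median 0.08), against 51.6% of all probes higher and a median of 0.01. The signed DMA minus DMSO difference was more positive at 48 h than at 24 h for 3 of the 6 members, Lipe, Adipoq and Retn, and for 47.3% of all probes; for Retn this was a smaller negative value. Among the 6 members only Retn at 24 h had groups that did not overlap, DMA being lower, with 2 DMA values. Over all probes at 24 h, 4.51% had such groups with DMA higher and 3.48% with DMA lower. At 48 h 0 of 6 had such groups, against 4.42% of all probes with DMA higher and 2.79% with DMA lower. The intervals show what these arrays could not resolve. Only those of Cidec left out a change of 1 log2 unit in both directions at both times; for each of the other 5 members such a change in at least 1 direction lay inside the interval at each time.

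**Figure D2:**
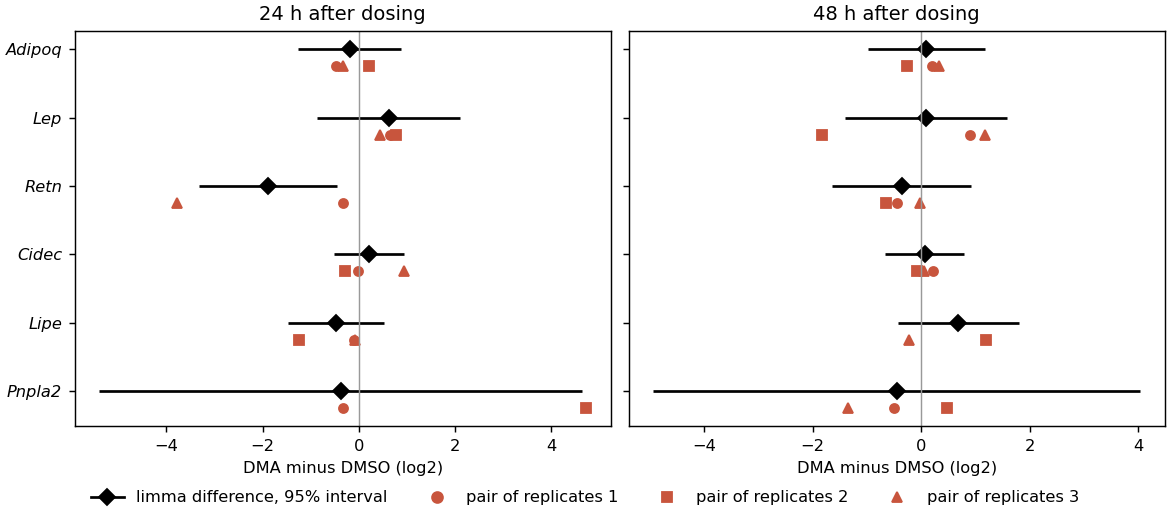
DMA minus DMSO (horizontal axis, log2 units) for each tested gene at 24 h and 48 h; black diamonds with lines are the limma difference and its 95% interval, and red markers below them are the differences of same-numbered arrays. The interval of Retn at 24 h, -3.33 to -0.46, is the only one of the 12 that leaves out 0, before any adjustment.

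Fat attached to a heart would bring several adipocyte genes into 1 sample together, so the deviations of the members from their group means were compared across arrays. If RNA was pooled for each treatment and time, as the design text describes, arrays of a group share the same hearts. Their deviations could then not show fat carried by single hearts, and which case holds cannot be told from the labels. The members did not move as 1 block. Over their 15 gene pairs the median Pearson correlation was -0.01, from -0.87 to 0.52, with 7 pairs above 0; over all pairs of the 12357 genes with a value on every array the median was 0.0. The arrays of a time looked scaled together and same-numbered arrays deviate together, and these correlations are given as a description, with no p. Without both DMA replicate 3 arrays the median over the members was -0.29. Over the 6 pairs of the 4 members made mainly by adipocytes the median was 0.21, from -0.69 to 0.52, with 4 above 0. Without both DMA replicate 3 arrays it was 0.33, from -0.38 to 0.63, with 5 above 0. These 6 pairs share 4 genes and are too few to show a common pattern. The wider list of adipocyte markers given further on had medians below 0, -0.17 and -0.06 without both arrays.

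Among the members made mainly by adipocytes, Adipoq and Lep had the closest pattern, with a Pearson r of 0.52 and a Spearman rho of 0.64 over 12 arrays, and r = 0.42 without both DMA replicate 3 arrays. Adipoq and Cidec had r = 0.44 and rho = 0.41, and r = 0.25 without those arrays. Adipoq and Retn had r = -0.01 and rho = 0.0 over 11 arrays, and r = 0.63 without those arrays. On DMA 24 h replicate 3 Retn was at -1.0 and Adipoq at 0.54 from the group mean. Retn had 2 values in that group, so its deviations there mirror each other by construction. Without replicate 3 its remaining value has no deviation, so part of the change in r comes from the centring. Cidec and Retn ran in opposite directions, with r = -0.69 and rho = -0.60. Pnpla2 ran opposite to Cidec, with r = -0.87 and rho = -0.87 over 11 arrays and r = -0.75 without both DMA replicate 3 arrays. With Adipoq it had r = -0.58 and rho = -0.56. Pnpla2 had 2 values in DMSO 24 h, so its deviations there, 2.47 and -2.47, mirror each other by construction. Its -5.16 on DMA 24 h replicate 3 comes from the lowest value of that array. How far the correlations of Pnpla2 rest on these values was not tested.

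On DMSO 24 h replicate 3, the array with a Fabp4 value of 14.62, Adipoq and Retn had their highest values of that time and Lep deviated by 0.77 from its group mean, while Cidec deviated by -0.22. Ucp1, the uncoupling protein of brown fat, also had its highest value of 24 h there, at 8.20, but over 11 arrays it had r = -0.10 with Adipoq. On DMA 48 h replicate 1 Ucp1 had its highest value of 48 h, 7.57, where Adipoq deviated by -0.51 from its group mean. On replicate 1 of both DMSO groups 0 of the 4 genes Adipoq, Lep, Retn and Cidec were above the group mean. The 8 other adipocyte markers of the wider list described next deviated on average by 0.23 on both of those arrays, the opposite way. Those arrays also had the most missing values of their times, 3997 and 2498, whose part in this was not tested.

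**Figure D3:**
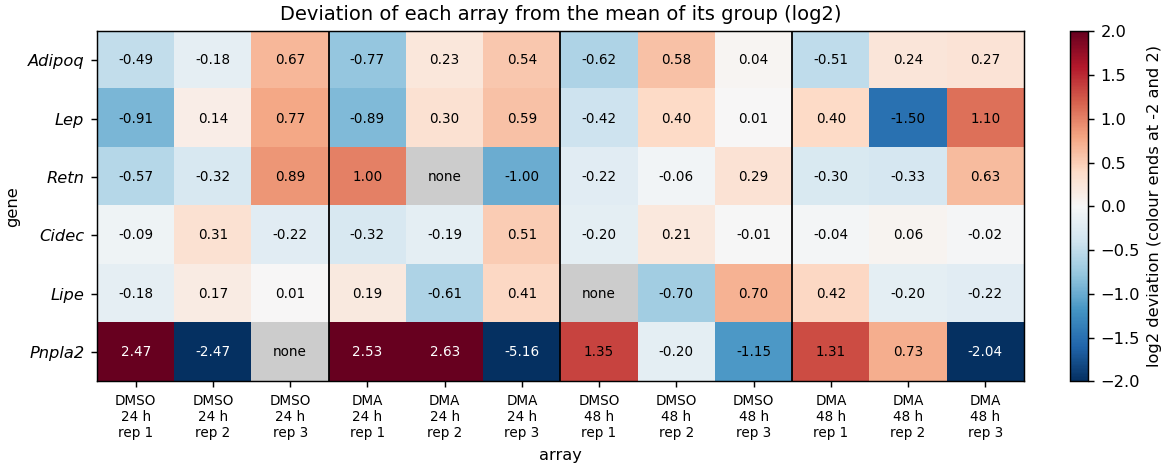
Deviation of each array (horizontal axis) from the mean of its group for each tested gene (vertical axis), in log2 units, with red above and blue below the mean and grey where there is no value. Rows of Adipoq and Lep share most of their colours, while Pnpla2 runs from 2.63 to -5.16 and against Cidec. The -5.16 comes from the lowest value of its array.

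In a wider list of 20 adipocyte markers, the 11 with a value on every array gave 55 pairs with a median correlation of -0.17 and 30.9% above 0. Leaving out both DMA replicate 3 arrays gave a median of -0.06 with 41.8% above 0. Of the 20 markers 17 had a probe and were tested, and 8 were positive at 24 h and 8 at 48 h, with medians of -0.19 and -0.07 and 0 passing in either direction. Without DMA replicate 3 the medians were 0.05 and -0.08, so the sign turned at 24 h. Of the 11 markers with a value on every array, the mean log2 level was 6.90 to 7.33 on DMSO and 6.87 to 7.32 on DMA at 24 h, and 6.98 to 7.34 on DMSO and 7.35 to 7.45 on DMA at 48 h. The last 2 ranges did not overlap, with a gap of less than the spread within either group. The list includes the members Adipoq, Lep, Retn and Cidec. Of the 17 tested markers 7 lay above the median of every array on which they had a value, 4 below it on every such array and 6 on both sides. Those below were Lep, Nnat at 1.65 to 4.99, Slc7a10 at -1.0 to 4.84 and Tshr at 3.67 to 6.22. Among the markers above it were the nuclear receptor Pparg at 7.49 to 9.25 on 11 arrays and the droplet coat gene Plin4 at 9.53 to 11.11 on 12 arrays. A separate list of brown adipocyte markers was mixed. Cidea, of brown fat droplets, at 8.19 to 9.48 on 10 arrays, and Kcnk3, at 11.80 to 13.67, stayed above the array medians, and Cox8b had 1 value. Ucp1, Dio2, Elovl3, Zic1, Prdm16, Ppargc1a and Otop1 had lowest values of 3.11, 5.87, 3.04, 4.70, 4.69, 5.76 and 2.71, below them.

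With Adipoq as the reference, 3 of the other 10 adipocyte markers with a value on every array had a correlation above 0, against 49.3% of all genes. These were Trarg1, which acts in glucose transporter traffic of fat cells, at 0.66, Lep at 0.52 and Cidec at 0.44. The median over the 10 was -0.17, against -0.01 over all genes. Without both DMA replicate 3 arrays 6 of 10 were above 0, against 48.0% of all genes, and the median was 0.21. The largest move was that of Mrap, the accessory protein of the melanocortin receptor, from -0.22 to 0.76. Mrap read 6.21 on DMA 24 h replicate 3 and 9.55 to 10.57 on the other arrays.

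**Figure D4:**
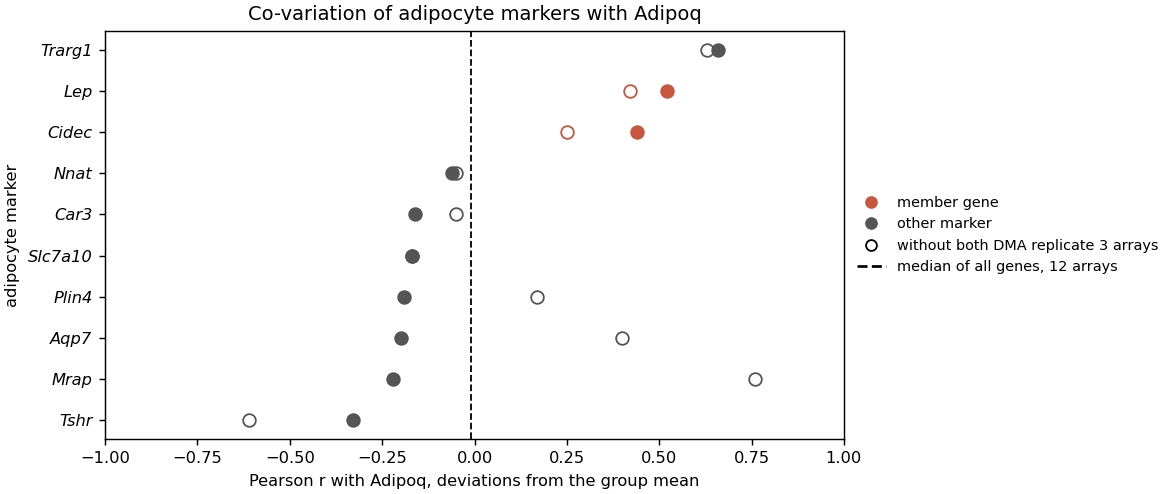
Pearson correlation (horizontal axis) of each adipocyte marker (vertical axis) with Adipoq, from deviations around the group means; filled points use 12 arrays, open points leave out both DMA replicate 3 arrays, red marks member genes and the dashed line is the median of all genes. Trarg1, Lep and Cidec lie above 0 either way, and Mrap, Aqp7 and Plin4 cross from below to above 0 without those arrays.

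The genes whose deviations were most like the mean of Adipoq, Lep, Retn and Cidec were Slamf8, Sec16a, Gmip, Olfr806, Nacc1, Camk1d, Pop5 and Zcwpw2, with r from 0.93 down to 0.89 over 12 arrays among 7341 genes brighter than the median. None of them is on the adipocyte or brown adipocyte list. Without both DMA replicate 3 arrays their correlations were 0.79 to 0.93. The ranking is a description.

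Markers of brown fat and of other cell types gave the setting. Of 10 brown adipocyte markers 8 were tested, 6 positive at 24 h (median 0.41, and 0.07 without DMA replicate 3) and 2 positive at 48 h (median -0.22, and 0.0 without it). Cox8b, a respiratory chain gene of brown fat that is also strong in heart, had 1 value, 15.07 on DMA 24 h replicate 3. Mean log2 levels of endothelial markers were 8.15 to 9.51 on DMSO at 24 h, 9.44 and 9.03 on DMA replicates 1 and 2 and 7.0 on DMA replicate 3. Their median difference at 24 h was -0.11, and 0.66 without that array. At 48 h 15 of 16 endothelial markers had a negative difference (median -0.35, and -0.10 without DMA replicate 3), and their part in the values of the members was not tested. Cardiomyocyte markers were uneven. Ttn lay at 13.27 to 14.74 on 10 arrays and Myl4 at 11.27 to 12.85 on 11. Ryr2 lay at 5.41 to 7.54, Myh6 at 3.84 to 9.82 and Myh7 at 5.39 to 11.13 on 12 arrays. The 5 with a value on every array averaged 7.62 to 9.14 on DMSO at 24 h and 5.82 on DMA 24 h replicate 3. Of 18 cardiomyocyte markers 7 had values on fewer than 3 arrays, among them Actc1 with none. Macrophage markers were at 8.42 to 8.96 on DMSO and 8.45 to 9.16 on DMA at 24 h.

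Genes that coat lipid droplets or control lipolysis did not pass at either time. Of 20 listed, 17 had a probe and 16 were tested, with 10 positive at 24 h (median 0.20) and 7 at 48 h (median -0.07, and 0.09 without DMA replicate 3). The smallest p at 24 h belonged to Fitm1, which promotes droplet formation, at 0.97 (SE 0.456), Mgll, the lipase of the last step of lipolysis, at 1.36 (SE 0.640), and Plin5, the droplet coat of heart muscle, at 0.71 (SE 0.355), each with a limma adjusted p of 0.871 and overlapping groups. At 48 h they were Pde3b, the phosphodiesterase by which insulin restrains lipolysis, at 0.76 (SE 0.881), G0s2, an inhibitor of Pnpla2, at -0.35 (SE 0.475), and Mgll at -0.41 (SE 0.572). Without DMA 48 h replicate 3 these were 0.08, -0.12 and -0.05.

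Genes of fatty acid and triglyceride synthesis went in both directions. All 16 genes with a probe out of 18 listed were tested, and 7 were positive at each time, with medians of -0.10 and -0.06. Without DMA replicate 3 both signs turned, to 0.18 and 0.06. At 24 h Agpat2, an acyltransferase of triglyceride synthesis, differed by 1.55 (SE 0.588), and Thrsp, a lipogenic gene of fat and liver, by 0.99 (SE 0.561). Thrsp had no value on DMA 24 h replicate 3, and its 2 DMA values, 8.34 and 8.41, were above its DMSO values of 6.79 to 8.16. Mogat1, a monoacylglycerol acyltransferase, differed by -0.93 (SE 0.409) and had DMA values of 3.89 to 5.40 below DMSO values of 5.46 to 5.73. All 3 had a limma adjusted p of 0.871. Over all probes at 24 h, 4.51% had DMA values all above the DMSO values and 3.48% all below. At 48 h Mogat1 differed by 0.38 (SE 0.409), Acly by -0.79 (SE 0.925) and Me1 by -0.46 (SE 0.576), the last a pair of genes that supply acetyl groups and reducing power. Without DMA 48 h replicate 3 Acly and Me1 were at 0.03 and 0.14.

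Genes that handle Lpl and take up fatty acids were read as a list of their own. They do not measure the level of Lpl, which could not be tested. Of 15 listed, 12 had a probe and 10 were tested, with 5 positive at 24 h (median 0.04) and 3 at 48 h (median -0.10), and 0 passing. Angptl4, the inhibitor of Lpl, lay at 8.15 to 11.08 on the 3 DMA arrays and at 7.08 and 7.53 on the 2 DMSO arrays with a value at 24 h, a difference of 2.27 (SE 0.881, limma adjusted p = 0.871). Non-overlap with DMA higher held for 4.51% of all probes at 24 h. Apoc2, the activator of Lpl, differed by -1.75 (SE 0.939), and by -0.76 without DMA replicate 3, and the fatty acid transporter Slc27a1 by 1.19 (SE 0.761). Without DMSO 24 h replicate 2 Slc27a1 differed by 0.28, and without DMSO 24 h replicate 1 by 1.90. At 48 h Lipg, the endothelial lipase, differed by -0.47 (SE 0.522), Fabp5, the epidermal fatty acid binding protein, by -0.27 (SE 0.370), and Slc27a1 by -0.40 (SE 0.761). Without DMA 48 h replicate 3 Lipg was at -0.08 and Slc27a1 at 0.19.

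Transcription factors of fat cells and genes of insulin action had 14 of 15 genes tested, with 6 positive at 24 h and 9 at 48 h. Their medians were -0.28 and 0.02, and 0.26 at 24 h without DMA replicate 3. Cebpa, a regulator of adipocyte differentiation, lay at 5.29 to 5.5 on DMA and at 3.29 and 4.50 on the 2 DMSO arrays with a value at 24 h, a difference of 1.48 (SE 0.435, limma adjusted p = 0.871). Slc2a4, the insulin-responsive glucose transporter, differed by 1.13 (SE 0.458). Nr2f2, a nuclear receptor, differed by -2.12 (SE 1.09), and by -0.38 without DMA replicate 3. Its DMA values, 5.5 to 10.92, were below its DMSO values, 11.04 to 11.14. Of all probes at 24 h, 4.51% had DMA values all higher, as Cebpa had, and 3.48% all lower, as Nr2f2 had. At 48 h Rxra, the partner of Pparg, differed by 0.56 (SE 0.498, 2 DMSO values, both below the DMA values). DMA values all above the DMSO values held for 4.42% of all probes at 48 h. Klf15 differed at 48 h by -0.37 (SE 0.418), 0.04 without DMA replicate 3, and Pparg by 0.17 (SE 0.411).

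Receptors of the adipokines, which the heart itself carries, had 5 of 7 genes tested, with 2 positive at 24 h and 1 at 48 h, and medians of -0.06 and -0.48. Without the DMA replicate 3 arrays both medians were positive, 0.61 and 0.14. At 24 h Tlr4 differed by 0.52 (SE 0.497), the adiponectin receptor Adipor2 by -0.53 (SE 0.799) and the integrin Itgb1 by -0.53 (SE 0.878), the last 2 at 0.61 and 0.56 without DMA replicate 3. At 48 h Tlr4 differed by -0.64 (SE 0.556), Cdh13, which binds adiponectin, by -0.66 (SE 0.996) and Itgb1 by -0.48 (SE 0.878). Without DMA replicate 3 Cdh13 was at 0.36 and Itgb1 at 0.05. Over the 5 lists the smallest limma adjusted p was 0.871 at 24 h and 1.0 at 48 h.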

How the data were processed

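The table deposited by the authors held log2 intensities of 36227 probes on 12 arrays; per the labels these were one-colour Cy5 arrays, with background correction, normalization and the meaning of empty cells not given in the sources used here. The platform annotation names 1 symbol for 21615 probes, several for 681 and none for 13931, and 21487 of the first were found by gene identifier in RefSeq (GRCm38.p6). Probes with at least 2 values in each group, 35401, were tested with limma (version 3.58.1, R version 4.3.3; moderated statistics, a mean for each group, all 12 arrays, Benjamini-Hochberg over all probes, threshold 0.05). The fit was tested on simulated data. Plots used matplotlib 3.10.9 in Python 3.11.15. The number of arrays limits the precision.

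Replicate numbers were taken to pair arrays within a time, from the data only. Deviations of same-numbered DMSO and DMA arrays over 25002 probes correlated at 0.11 to 0.186 at 24 h and 0.266 to 0.329 at 48 h. Those of different numbers correlated at -0.208 to -0.0117. Deviations cancel within a group by construction, so where same-numbered arrays correlate positively those of different numbers tend to be negative.

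The members and the 16 gene lists (5 of pathways, 11 of cell types) were chosen with earlier results of these data known. All members were named, with up to 3 genes of smallest p per pathway list and time and the 8 genes most like the mean of Adipoq, Lep, Retn and Cidec. Cell type lists of fibroblasts, smooth muscle and pericytes, neutrophils, mesothelium, skeletal muscle and lymphocytes had medians of -0.10, 0.26, 0.29, 0.0, 0.23 and 0.16 at 24 h and -0.05, -0.27, -0.07, -0.08, -0.09 and 0.12 at 48 h, macrophages 0.38 and -0.05, and cardiomyocytes -0.19 and 0.01. Without DMA replicate 3 the sign turned at 24 h for fibroblasts (0.31) and cardiomyocytes (0.16), and at 48 h for fibroblasts (0.20), macrophages (0.26), neutrophils (0.09) and skeletal muscle (0.06). Alternatives covered the arrays fitted, blocks, array weights, scaling, a trend along probe numbers, floor values and filters.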

Additional observations from a re-analysis of the deposited data

How the results depend on the processing

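No member gene passed in limma under any alternative run. Over single arrays left out the smallest limma adjusted p of a member was 0.535, and over the other settings with all arrays 0.676. The number of probes passing with 1 array left out was 0 to 14 at 24 h (14 when DMA 24 h replicate 2 was dropped and 9 when replicate 1 of that group was), 0 to 1 at 48 h (1 without DMA 48 h replicate 1 or DMSO 48 h replicate 2) and 0 to 4 for the difference between the times (4 and 1 on dropping replicates 1 and 2 of that same DMA group); without both DMA replicate 3 arrays it was 3 at 48 h and 0 at 24 h. Unadjusted counts ran from 400 to 3027 at 24 h and from 5 to 1476 at 48 h. The fit with same-numbered arrays as a replicate block changed no call; it had 1708 probes at 24 h and 753 at 48 h at an unadjusted p under 0.05, and 1476 at 48 h on the 6 arrays of that time, a setting added after seeing the data. Removing the trend along probe numbers moved the median of all probes at 24 h by -0.10, to -0.02, and array weights by -0.13; directions of the members at 24 h and 48 h were the same under the former and under quantile normalization.

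The count of members with a positive difference was 1 of 4 at 24 h and 2 of 4 at 48 h with dim probes left out, and 1 of 3 for the difference between the times with 3 values required in each group, where fewer members were tested. With 1 array left out it was 2 to 3 at 24 h, 2 to 4 at 48 h and 2 to 4 for the difference between the times. The median correlation among members was -0.13 to 0.05 with 1 array left out and -0.29 without both DMA replicate 3 arrays. The same correlations of the adipocyte-made members and the marker list without both arrays were added after seeing the data.

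Directions that turned concerned differences that had not passed, and the cause was not tested. At 24 h Pnpla2 was at 2.43 with array weights. It was at 2.20 with the replicate block, on all arrays or those of 24 h alone. With floor values set to missing and without both DMA replicate 3 arrays it was also at 2.20. The settings at 2.20 all leave out the same value, that of DMA 24 h replicate 3, and are not separate evidence. Cidec was at -0.01 with array weights and -0.04 without both arrays. For Adipor2 these were 0.64 and 0.61, and for Itgb1 0.58 and 0.56. At 48 h array weights gave 0.16 for Pnpla2 and -0.37 for Lep. Without both DMA replicate 3 arrays Pnpla2 was at 0.57, Adipoq at -0.04, Lep at -0.46, Acly at 0.03, Me1 at 0.14, Slc27a1 at 0.19, Klf15 at 0.04, Cdh13 at 0.36 and Itgb1 at 0.05. Me1 was at 0.14 with the replicate block too, on all arrays or those of 48 h. Me1 had 2 DMSO values at 48 h, so the block leaves out an unpaired DMA value there as well. For the difference between the times Pnpla2 was at 0.20 with the trend removed, and Cidec at 0.07 with array weights and 0.11 without both arrays.

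With 1 array left out, ranges at 24 h were -2.85 to 2.20 for Pnpla2, -0.46 to 0.19 for Adipoq, -0.04 to 0.37 for Cidec, -1.11 to 0.61 for Adipor2 and -1.10 to 0.56 for Itgb1. At 48 h they were -0.01 to 1.40 for Lipe, -1.11 to 0.57 for Pnpla2, -0.21 to 0.39 for Adipoq, -0.46 to 0.84 for Lep, -0.03 to 0.17 for Cidec, -0.17 to 1.71 for Pde3b, -1.46 to 0.03 for Acly, -0.92 to 0.14 for Me1, -0.78 to 0.19 for Slc27a1, -0.66 to 0.04 for Klf15, -1.33 to 0.36 for Cdh13 and -1.13 to 0.05 for Itgb1. For the difference between the times they were -2.65 to 2.40 for Pnpla2, -0.09 to 0.59 for Adipoq, -1.08 to 0.22 for Lep and -0.31 to 0.11 for Cidec. Of 27 named differences that kept their sign with each array left out, 24 moved by over 1.5 times under at least 1 omission. Retn kept its sign with each array left out, from -2.89 to -0.90 at 24 h and from -0.68 to -0.20 at 48 h. Where groups do not overlap, as for Retn at 24 h, no single omission can turn the sign, so its keeping there is no sign of stability.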
